A study of Homo sapiens with 12 samples.

Results

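The cytosolic ribosomal protein genes encode the protein part of the 80S ribosome and were taken here by gene symbol and type: protein-coding rows of the count tables named RPL or RPS with a number, with or without a final A or X, together with RPSA, RPLP0, RPLP1 and RPLP2. This gave 77 of 56104 gene rows, 46 for the large subunit and 31 for the small subunit, on 21 chromosomes. The rule used names only and no measured value. The cells were HCT116, a colorectal carcinoma line kept under 15 passages, either control (Ctrl) or with knockout of PPM1G (KO), a gene for a nuclear protein phosphatase. The assay of newly made RNA was 4sU-seq, with 4-thiouridine given at 500 µM for 10 min and 300 µg of RNA biotinylated per pull-down, and that of steady-state RNA was RNA-seq, with 3 Ctrl and 3 KO libraries per assay (12 libraries, all with ERCC spike-in RNA). The titles name the controls Ctrl_KO and the genotype field Ctrl, and neither says how the control line was made, whether the KO cells are 1 clone, which site was edited or whether both assays used the same cultures. The 4sU-seq libraries are described as biological replicates. The RNA-seq cultures are not described, so RNA-seq p-values measure the spread between these libraries, which may be technical.

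Ribosomal proteins are needed in fixed proportion to each other, and surplus copies are degraded, so the genes are usually studied as a group. Their mRNAs are short, abundant and long-lived, and most begin with a C followed by an unbroken run of C and T, the 5′ terminal oligopyrimidine (TOP) motif. The protein LARP1 binds that motif, and mTORC1 signalling sets how well such mRNAs are translated.

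The start sites of several genes that carry the results below are shown to make the TOP motif visible. Each window holds 10 bases before and 20 bases from the start annotated by RefSeq on GRCh38.p14, 5′ to 3′ on the gene's strand, and capitals mark the run of C and T that begins at the annotated start. The first 5 belong to genes called lower in 4sU-seq, the next 3 to genes called lower in RNA-seq and the last to a gene called higher in RNA-seq.
RPL37A (chr2:216498834-216498863, + strand): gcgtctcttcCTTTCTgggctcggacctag
RPL14 (chr3:40457329-40457358, + strand): ggtcttcttcCTTCTCgcctaacgccgcca
RPL34 (chr4:108620566-108620595, + strand): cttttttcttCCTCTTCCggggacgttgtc
RPL21 (chr13:27251548-27251577, + strand): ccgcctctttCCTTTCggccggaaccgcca
RPS24 (chr10:78033853-78033882, + strand): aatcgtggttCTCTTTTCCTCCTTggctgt
RPS15 (chr19:1438386-1438415, + strand): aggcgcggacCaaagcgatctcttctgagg
RPL18 (chr19:48619159-48619188, - strand): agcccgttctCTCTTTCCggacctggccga
RPL36 (chr19:5690285-5690314, + strand): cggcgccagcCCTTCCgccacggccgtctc
RPS12 (chr6:132814559-132814588, + strand): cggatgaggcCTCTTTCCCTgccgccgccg
Among the windows shown the run was longest in RPS24, at 14 bases, and RPS15 had a C at the annotated start followed directly by purines. The table held promoters for 62 of the 77 genes, of which 46 (74.2%) started with C, against 14.7% of all 35116 promoters in the table. A C at the start with a run of at least 5 bases of C and T was found in 43 of the 62 (69.4%), against 4.07% of all promoters. Within 300 bases around the start, on either strand, CCGGAA was present in 34 (54.8%, against 17.2% of all promoters), AAGATGGC in 6 (9.68%, against 2.89%) and CACGTG in 4 (6.45%, against 7.26%). None of these letter strings contains another of them, and CACGTG reads the same on both strands. RPL37, the sixth gene called in 4sU-seq, had no entry.

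Gene counts ranged from 79403238 to 101884166 per library in 4sU-seq and from 30962756 to 42479828 in RNA-seq. PPM1G itself fell in KO, by 1.11 ± 0.17 on the log2 scale in 4sU-seq and by 1.71 ± 0.06 in RNA-seq (fit ± SE, 3 libraries per group; edgeR adjusted p = 0.00717 and 1.77e-10). In 4sU-seq, KO replicate 2 stood apart from KO replicates 1 and 3 for the genes described here, and the main 4sU-seq results below are also given without it. RNA-seq KO replicates 1 and 2 were closer to each other than any other pair of libraries (chi-square over its degrees of freedom 1.71, other RNA-seq pairs 10.5 to 19.0) but differed beyond sampling noise, and were kept as separate libraries. The numbers of replicates do not mark shared cultures in the labels. In bulk RNA, fewer cells of a state and less RNA per cell cannot be told apart. Levels are given as CPM, gene counts relative to library size after TMM scaling, and changes as fitted log2 KO over Ctrl.

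In newly made RNA, 6 genes of the 70 that passed the filter on low counts were lower in KO and 0 were higher: RPL37A, RPL14, RPL37, RPL34, RPL21 and RPS24 (edgeR quasi-likelihood test, adjusted p under 0.05 over all genes tested). Over all 21236 genes tested, 19.6% were called, 6.98% as lower and 12.6% as higher, so the share called lower among these genes was near the background. RPL37A, a zinc-finger protein of the large subunit, read 404, 439 and 401 CPM in the Ctrl libraries and 237, 310 and 230 CPM in the KO libraries. All 3 KO libraries lay below all 3 Ctrl libraries, with replicate 2 the highest in each group. The change was -0.68 ± 0.14 (edgeR adjusted p = 0.0190), the lowest of the 70.

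RPL14, a large-subunit protein of eukaryotes, read 258, 278 and 247 CPM in Ctrl and 160.0, 218 and 168 CPM in KO, a change of -0.52 ± 0.14 (edgeR adjusted p = 0.0471). Its groups did not overlap, and it was the single gene of the family with all KO libraries below all Ctrl libraries in both assays. The share of all genes for which this held in both assays was not counted. Per assay, it was 17.8% in 4sU-seq and 29.9% in RNA-seq. In RNA-seq RPL14 read 398, 402 and 443 CPM in Ctrl and 370.0, 370.0 and 390.1 CPM in KO and was not called (-0.14 ± 0.06, edgeR adjusted p = 0.0691). RPL37, a zinc-finger protein like RPL37A, read 349, 354 and 344 CPM in Ctrl and 230.1, 267 and 241 CPM in KO in 4sU-seq. The KO libraries spread over a wider range than the Ctrl libraries, again with replicate 2 the highest, and the change was -0.50 ± 0.09 (edgeR adjusted p = 0.0134). In RNA-seq, RPL37 had a value of -0.04 ± 0.06 and was not called (edgeR adjusted p = 0.591).

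RPL34 read 227, 239 and 228 CPM in Ctrl and 155, 180.4 and 163 CPM in KO in 4sU-seq (-0.48 ± 0.10, edgeR adjusted p = 0.0192). RPL21, mutated in a hereditary hair loss, read 212, 218 and 206 CPM in Ctrl and 137, 172 and 148 CPM in KO (-0.47 ± 0.11, edgeR adjusted p = 0.0319). RPS24, a small-subunit protein mutated in Diamond-Blackfan anaemia, read 332, 349 and 334 CPM in Ctrl and 235, 267 and 246 CPM in KO (-0.44 ± 0.09, edgeR adjusted p = 0.0198). In all 3 genes every KO library lay below every Ctrl library. None of the 3 was called in RNA-seq, where the values were 0.02 ± 0.08 for RPL34, 0.10 ± 0.07 for RPL21 and 0.08 ± 0.06 for RPS24 (edgeR adjusted p = 0.870, 0.262 and 0.335).

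**Figure D1:**
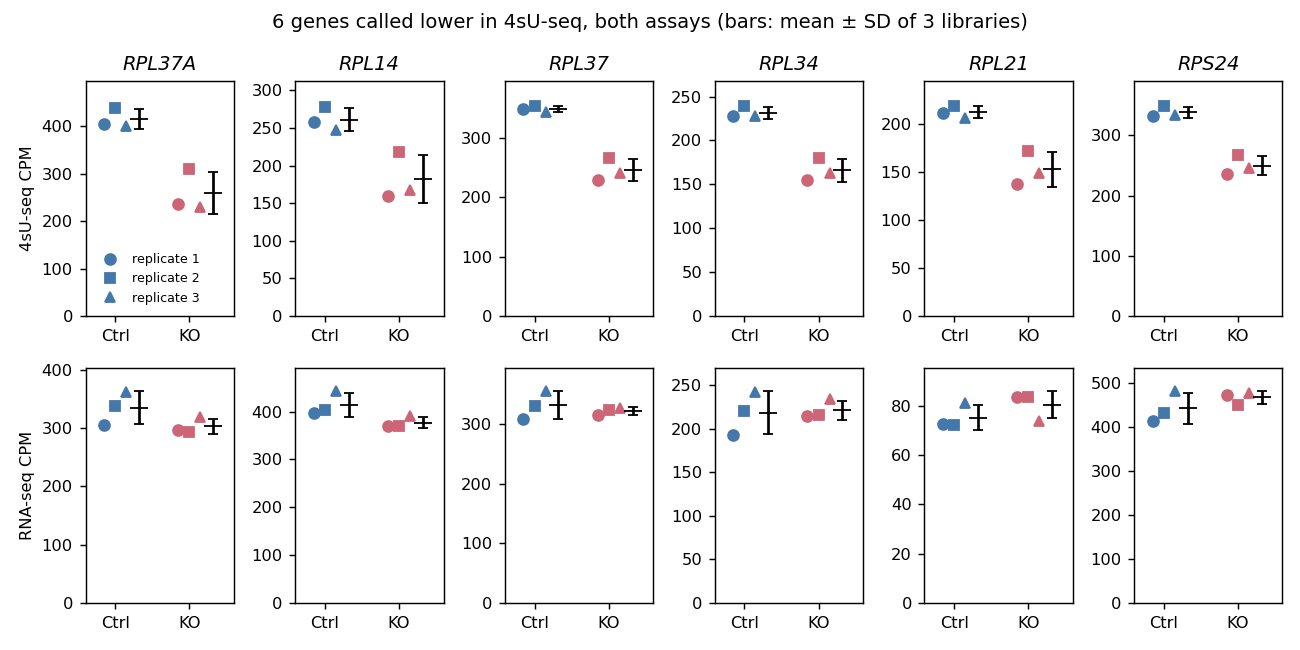
CPM of the 6 genes called lower in 4sU-seq, in 4sU-seq (upper row) and RNA-seq (lower row), by group; each point is 1 library, the symbol gives its replicate number, and the bars are mean ± SD of 3 libraries. In the upper row every KO point lies below every Ctrl point, with KO replicate 2 (square) the highest KO point; in the lower row the groups overlap except for RPL14.

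RPL37A (chr2:216498189-216579180), RPL14 (chr3:40457292-40468587), RPL37 (chr5:40825262-40835335), RPL34 (chr4:108620566-108630412), RPL21 (chr13:27251309-27256691) and RPS24 (chr10:78033732-78056813) lie on separate chromosomes (GENCODE 29 on hg38). RPL37 is on the - strand and the other genes on the + strand. Their main transcripts are poor in G and C for this family: when the 77 genes were ranked by transcript GC content, 5 of the 6 were among the 26 lowest (42.1 to 47.6% GC) and 1 among the next 25.

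The other 64 genes tested were not called, but nearly all had a negative change: 69 of 70 lay below 0, with a median of -0.24, against 0.05 for all genes tested. The large subunit (median -0.26 over 40 genes, 5 called) and the small subunit (median -0.24 over 30 genes, 1 called) had similar medians. The one positive value was that of RPLP0, the base of the stalk that recruits translation factors, at 0.02 ± 0.24 (edgeR adjusted p = 0.963). It read 503, 646 and 550.2 CPM in Ctrl and 480, 795 and 450 CPM in KO, so that KO held both the highest library and the lowest, and its sign was negative with DESeq2 size factors (-0.02). The other stalk proteins, RPLP1 and RPLP2, had values of -0.22 ± 0.20 and -0.19 ± 0.23 and were not called (edgeR adjusted p = 0.496 and 0.618). All 3 KO libraries lay below all 3 Ctrl libraries for 12 of the 70 genes, against 17.8% of all genes tested.

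These values depend on the scaling of the libraries. With ERCC scaling the median of the 70 genes was -0.08 with 0 called in edgeR (the median of all genes moved to 0.27). By library size alone it was -0.15 with 2 called (all genes 0.14). Of all genes, ERCC scaling called 0.207% as lower and 3.16% as higher, and library size alone 4.04% and 14.6%. Relative to all genes, the members lay at -0.29 with TMM, -0.35 with ERCC scaling and -0.29 by library size. A change of scaling moves every gene by nearly the same amount, so the closeness of these values is no test of the result.

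The number of genes called depended on KO replicate 2. For all 70 genes its level lay above both KO replicate 1 and KO replicate 3, by a median of 0.56 log2 units and a range of 0.13 to 0.93, whereas 46.9% of all genes tested lay above both and their median difference was 0.01. KO replicates 1 and 3 each lay below all 3 Ctrl libraries for 70 of the 70 genes, against 38.4% and 40.5% of all genes. KO replicate 2 lay below all Ctrl libraries for 12 genes, against 39.1% of all genes, and above all of them for 29. The share of all genes above all Ctrl libraries was not counted. Of the 4sU-seq counts, ribosomal protein genes took 1.48, 1.72 and 1.45% in the Ctrl libraries 1 to 3 and 1.20, 1.81 and 1.16% in KO, so replicate 2 was the highest in both groups.

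Without KO replicate 2, 70 of the 70 genes were called lower, with a median of -0.54, while 53.8% of all genes were called, 28.4% as lower (edgeR, 3 Ctrl against 2 KO libraries). RPL37, RPL34, RPL21 and RPS24 moved to -0.64 ± 0.08, -0.61 ± 0.08, -0.64 ± 0.08 and -0.56 ± 0.08 (edgeR adjusted p = 0.000799, 0.00111, 0.00111 and 0.00143). The smallest of the 70 changes was -0.26 and the most negative that of RPS10, -1.29, a gene counted at no more than 0.419 CPM in any 4sU-seq library. RPL37A moved to -0.90 ± 0.08 and RPL14 to -0.74 ± 0.09 (edgeR adjusted p = 0.000333 and 0.000783). Without the replicates numbered 2 of both groups, 66 of 70 were called lower, with a median of -0.44, against 24.8% of all genes called lower. In the other direction, leaving out Ctrl replicate 1, 2 or 3 or KO replicate 1 left 0 called, and leaving out KO replicate 3 left 1. In these fits, in that order, 1.2, 1.5, 2.4, 1.6 and 3.4% of all genes were called lower, against 6.98% in the main fit.

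**Figure D2:**
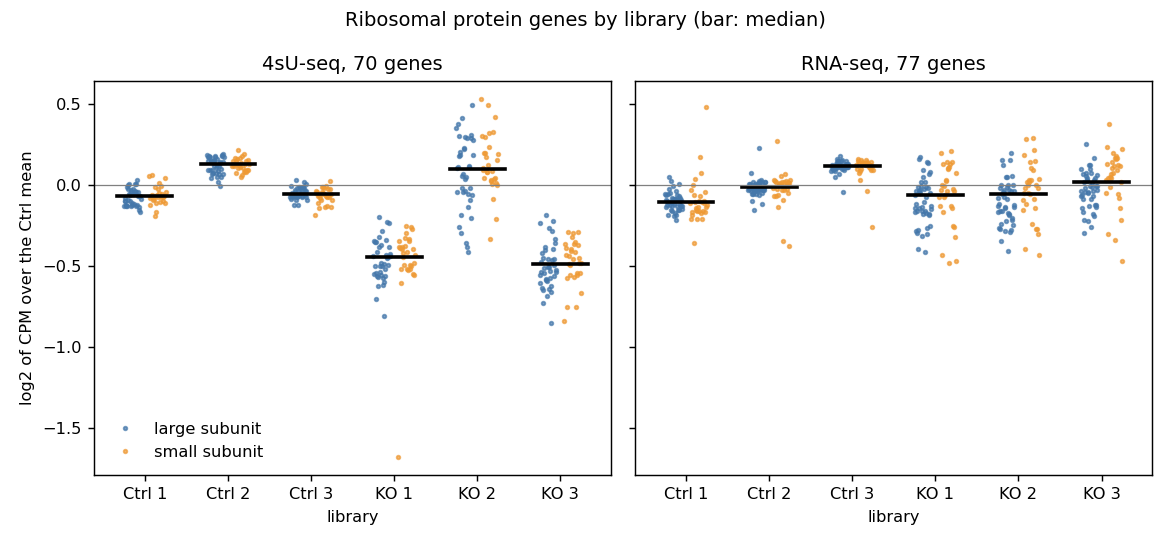
Each point is 1 ribosomal protein gene in 1 library, as log2 of its CPM over the mean CPM of the 3 Ctrl libraries, by library (x axis) and subunit (colour), for 4sU-seq (left, 70 genes) and RNA-seq (right, 77 genes); black bars are medians. In 4sU-seq, KO replicates 1 and 3 have medians of -0.44 and -0.48 and KO replicate 2 one of 0.10, and the lowest point is RPS10 in KO replicate 1.

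The excess of KO replicate 2 over KO replicates 1 and 3 followed the GC content of the transcript. Spearman's rho was 0.79 over the 70 genes and 0.72 over 14694 protein-coding genes, which share the same 3 libraries. The median excess was 0.75 in the 26 genes of highest GC content and 0.40 in the 21 tested of the 26 lowest. RPS15 and RPL18, both of high GC content, read 141 and 217 CPM in KO replicate 2 against 73.1 to 81.1 and 122 to 132 CPM in KO replicates 1 and 3. Ctrl replicate 2 deviated in the same direction, with a median log2 of 0.13 over the Ctrl mean and 69 of the 70 genes above it. Across genes, the deviations of Ctrl and KO replicate 2 from their group means correlated by 0.948. The relation of the Ctrl deviation to GC content was not computed. When each library's trend with GC was removed, 13 of the 70 genes (18.6%) were called lower, near the 16.2% of all genes called lower in the same fit, with a median of -0.30 against -0.04 for all genes. ERCC RNA took 0.0560% of the counts of KO replicate 2, the highest share in 4sU-seq, and 0.0324 and 0.0230% in KO replicates 1 and 3. The part of the spike-in share in these results was not tested beyond the scaling given above.

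**Figure D3:**
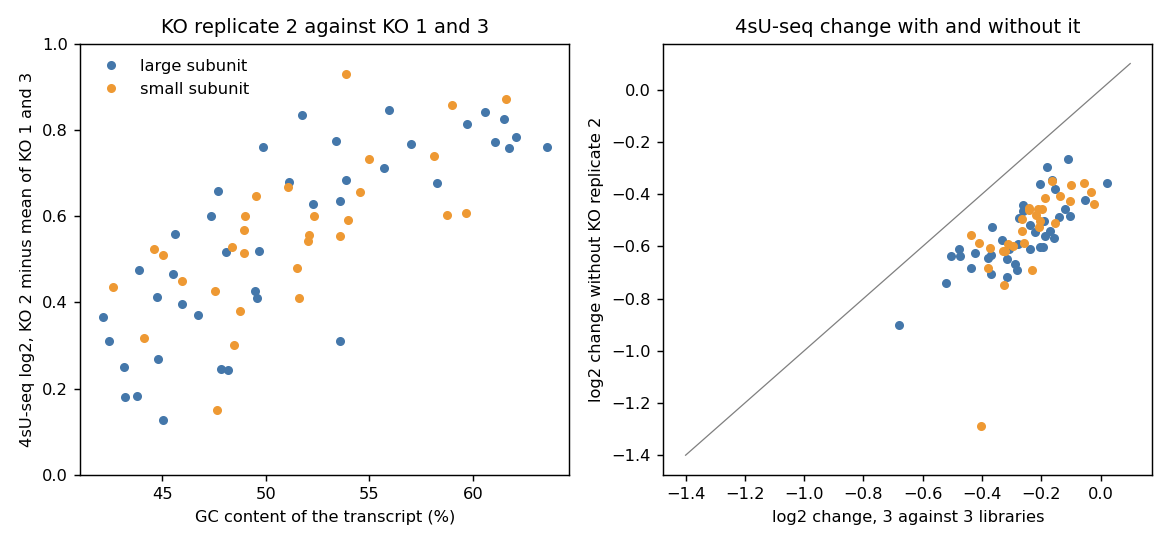
Left: 4sU-seq log2 CPM of KO replicate 2 minus the mean of KO replicates 1 and 3 for each of 70 ribosomal protein genes, against the GC content of its transcript (%). Right: log2 change KO over Ctrl without KO replicate 2 against the change with all 6 libraries, with the line of equal values. All 70 differences at left are above 0 (0.13 to 0.93), and all 70 points at right lie below the line.

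In steady-state RNA, 18 of the 77 genes were lower in KO, 5 were higher and 54 were not called (edgeR adjusted p under 0.05 over all genes tested). Over all 20415 genes tested 48.4% were called, 26.8% as lower and 21.5% as higher, while 29.9% of this family were called. The median change was -0.02, with -0.08 for the large subunit and 0.01 for the small subunit, and 35 of the 77 values lay within 0.1 of 0. The groups did not overlap for 18 genes with KO lower and 5 with KO higher, against 29.9% and 26.1% of all genes tested.

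The genes called lower with the smallest p were RPS15, RPL18, RPL36 and RPL28. RPS15, whose tail reaches the decoding centre of the small subunit, read 317, 303 and 335 CPM in Ctrl and 236, 242 and 258 CPM in KO. Its groups were separated by more than the spread within either, at -0.38 ± 0.06 (edgeR adjusted p = 0.000125). RPL36 read 306, 301 and 336 CPM in Ctrl and 236, 237 and 262 CPM in KO (-0.36 ± 0.06, edgeR adjusted p = 0.000314). RPL18, a large-subunit protein linked to Diamond-Blackfan anaemia, read 398, 389 and 431 CPM in Ctrl and 309, 318 and 330.5 CPM in KO (-0.35 ± 0.06, edgeR adjusted p = 0.000218). RPL28, a large-subunit protein of eukaryotes, read 413, 399 and 434 CPM in Ctrl and 333, 340.1 and 355 CPM in KO (-0.28 ± 0.06, edgeR adjusted p = 0.000966). In none of these 4 genes did the groups overlap. In 4sU-seq RPS15, RPL36, RPL18 and RPL28 had values of -0.33, -0.21, -0.29 and -0.28 and were not called.

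These 4 genes lie on chromosome 19: RPS15 at chr19:1438358-1440494, RPL36 at chr19:5674947-5691876, RPL18 at chr19:48615328-48619536 on the - strand and RPL28 at chr19:55385345-55403250 (GENCODE 29 on hg38; the other 3 on the + strand). RPS15, RPL18 and RPL36 were also called lower with DESeq2 size factors, ERCC scaling and library size alone, the 3 of the 18 for which this held. The RNA-seq change had a Spearman's rho of -0.39 with transcript GC content over the 77 genes and -0.03 over 13619 protein-coding genes. Of the 26 genes of highest GC content 8 were lower and 0 higher, of the 25 in the middle 6 were lower and 4 higher, and of the 26 lowest 4 were lower and 1 higher. With each library's GC trend removed, 19 were lower and 5 higher, against 29.95% and 20.8% of all genes.

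RPS9, a small-subunit protein near the mRNA entry, had the lowest value, -0.46 ± 0.16 (edgeR adjusted p = 0.0303). It read 92.4, 50.9 and 55.2 CPM in Ctrl and 47.8, 49.1 and 47.7 CPM in KO, so that Ctrl replicate 1 stood far above the other 5 libraries, which lay within a few CPM of each other. Its table identifier is not in GENCODE 29 and it was placed through its symbol, as were RPL7A, RPS25 and RPS18, among others. The other genes called lower included RPS26, RPL38, RPL4, RPL15, RPL12, RPS6, RPL8, RPS4X, RPL3, RPL6 and RPL7A, with changes from -0.35 to -0.17. Of the 18, 9 were called lower whichever 1 library was left out, RPL15, RPL18, RPL28, RPL36, RPL38, RPL4 and RPS15 among them.

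The 5 genes called higher were RPS12, RPS29, RPS27, RPL23A and RPL41. RPS12 of the small subunit read 312, 368 and 401 CPM in Ctrl and 412, 409 and 424 CPM in KO (0.20 ± 0.08, edgeR adjusted p = 0.0440). Every KO library was above every Ctrl library, but the lowest Ctrl library lay farther from the other Ctrl libraries than the groups lay from each other. RPS29, a zinc-finger protein of the small subunit, read 103, 124 and 130 CPM in Ctrl and 137, 138 and 133 CPM in KO (0.20 ± 0.08, edgeR adjusted p = 0.0499). RPS27, also a zinc-finger protein, read 46.0, 45.4 and 53.7 CPM in Ctrl and 52.1, 59.0 and 54.8 CPM in KO, with overlap between the groups (0.19 ± 0.07, edgeR adjusted p = 0.0408). RPL23A, at the mouth of the peptide exit tunnel, read 162, 143 and 174 CPM in Ctrl and 180, 174 and 190.4 CPM in KO (0.18 ± 0.07, edgeR adjusted p = 0.0463).

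RPL41, which encodes a peptide of the large subunit, read 215, 197 and 231 CPM in Ctrl and 235, 245 and 240.1 CPM in KO (0.16 ± 0.06, edgeR adjusted p = 0.0443). In 4sU-seq all 5 of these genes had a negative change, from -0.37 for RPS29 to -0.05 for RPL23A, and none was called. None of the 5 stayed called when each library's trend with gene span was removed, or when KO replicate 2 or KO replicate 3 of RNA-seq was left out, and 1 stayed called without KO replicate 1. The highest value of the 77, that of RPS15A, was 0.26 ± 0.12 and did not pass the test (edgeR adjusted p = 0.0838). It read 106, 165 and 139 CPM in Ctrl and 149, 166 and 177 CPM in KO.

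The balance between lower and higher in RNA-seq depended on the scaling. By library size alone 3 genes were lower and 42 higher, with a median of 0.17, while the median of all genes moved to 0.19 and 50.2% of them were called, 13.8% as lower and 36.4% as higher. With ERCC scaling 3 were lower and 11 higher, against 13.4% and 21.4% of all genes, with a median of 0.08 against 0.08 for all genes. Relative to all genes the members lay at -0.02 with TMM, -0.01 with ERCC scaling and -0.02 by library size, values that a change of scaling can hardly move. In raw counts the family took 2.46, 2.60 and 2.71% of gene counts in Ctrl and 2.77, 2.76 and 2.83% in KO. Without Ctrl replicate 3, 12 genes were lower and 16 higher, against 22.2% and 21.8% of all genes. Without KO replicate 1, 9 were lower and 1 higher, against 22.25% and 17.25% of all genes, and without KO replicate 2, 11 were lower and 0 higher, against 22.25% and 17.2%. When all 12 libraries shared 1 estimate of spread, 0 were called, against 22.4% of all genes.

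The ratio of large-subunit to small-subunit counts, which no scaling of a library can move, differed between the RNA-seq groups without overlap. It was 1.83, 1.80 and 1.82 in Ctrl and 1.73, 1.72 and 1.71 in KO. In 4sU-seq it was 1.70, 1.72 and 1.72 in Ctrl and 1.67, 1.68 and 1.67 in KO, also without overlap, with KO replicate 2 the KO library nearest to Ctrl.

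**Figure D4:**
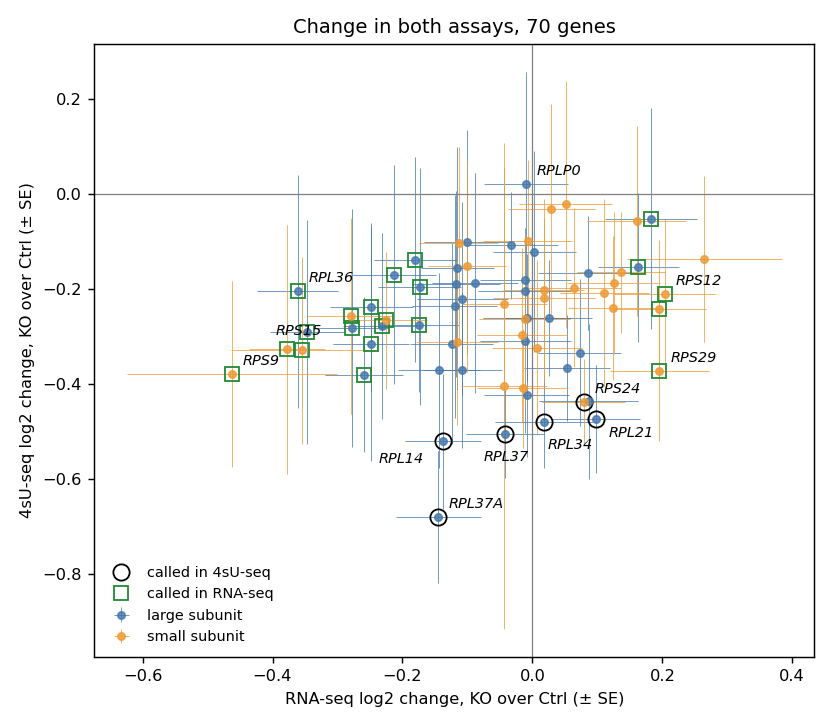
Log2 change KO over Ctrl in 4sU-seq (y axis) against RNA-seq (x axis) for the 70 ribosomal protein genes tested in both; points are fitted values, bars ± SE from 3 libraries per group, colour gives the subunit, circles mark genes called in 4sU-seq and squares those called in RNA-seq. The points lie below 0 on the y axis except for RPLP0, spread around 0 on the x axis, and no gene is marked by both symbols.

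The difference between assays asks whether the nascent-to-total ratio moved with genotype, and was tested in 1 model with genotype, assay and their interaction. RPS24 passed, with its newly made RNA lower relative to its steady-state RNA in KO, at -0.52 ± 0.11 (edgeR adjusted p = 0.0413). It was 1 of 70 genes, with 0 higher, against 2.14% of 15863 genes called, 1.03% as lower and 1.12% as higher. The median difference was -0.21 over the 70 genes, -0.15 for the large and -0.24 for the small subunit, against 0.02 for all genes. Without 4sU-seq KO replicate 2, 57 of the 70 were called lower, with a median of -0.49, while 32.1% of all genes were called, 21.6% as lower. The RPS24 call was absent with ERCC scaling, with no filter on low counts, and when any 1 library was left out other than 4sU-seq KO replicate 2 or RNA-seq Ctrl replicate 3.

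RPL21 had the lowest difference, -0.57 ± 0.14 (edgeR adjusted p = 0.0617), followed by RPS29, at -0.57 ± 0.18 (edgeR adjusted p = 0.141). RPL36 had the highest, 0.16 ± 0.27, followed by RPS9, at 0.08 ± 0.31 (edgeR adjusted p = 0.851 and 0.943), and the standard errors of both exceeded the values. The 4sU-seq and RNA-seq changes of the 70 genes had a Spearman's rho of 0.23, and 0.53 when 4sU-seq KO replicate 2 was left out.

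In Ctrl cells most ribosomal protein genes held a smaller share of newly made RNA than of steady-state RNA. The nascent-to-total ratio, taken as log2 of 4sU-seq CPM plus 0.5 minus log2 of RNA-seq CPM plus 0.5 on group means, had a median of -0.87 over the 77 genes. The tables were scaled separately, so its zero is not absolute. Over 68 genes, leaving out 9 described below, the median was -0.83 with a range of -1.43 to 1.49, and 57 of the 68 lay below the median of all 15863 genes tested in both assays, 0.19. The large subunit (-0.84 over 39 genes) and the small subunit (-0.82 over 29) did not stand apart. In KO the median over the 68 was -0.93, and 57 of the 68 genes had a lower ratio in KO than in Ctrl. The KO median was -1.21 without 4sU-seq KO replicate 2, and 68 of the 68 then had a lower ratio. The share of all genes with a lower ratio in KO was not counted. In the fitted difference between assays, the median of all genes was 0.02, and -0.14 without 4sU-seq KO replicate 2, so part of that shift was general.

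The highest ratios in Ctrl were those of RPL21, RPS29 and RPS9. RPL21 had 1.49, from 1.34 to 1.59 over pairs of libraries, and its pseudogene rows held 84.2% of the RNA-seq counts of the gene and its pseudogenes together but 18.5% of those in 4sU-seq. RPS29, whose pseudogene rows held 0.0162% in RNA-seq, had 1.28 (1.08 to 1.57). RPS9 had 0.58, but over a range of -0.03 to 1.05, since its RNA-seq Ctrl libraries differed. Over the 68 genes the ratio had a Spearman's rho of 0.43 with the length of the gene on the genome and 0.24 with its number of pseudogene rows.

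The 9 genes left out have over 90% of the exon bases of their main transcript under another annotated gene: RPL15, RPL17, RPL26, RPL32, RPL35A, RPL36A, RPL5, RPS10 and RPS4X. They had the 9 lowest Ctrl levels of the family in 4sU-seq, at most 14.6 CPM, whereas the other 68 were at 24.8 CPM or more. In RNA-seq the same 9 read from 15.9 to 678 CPM in Ctrl. RPL15, RPS4X, RPL32 and RPL35A were listed at 0 in all 6 libraries of 4sU-seq, where 3 counts correspond to at most 0.0365 CPM, and read 678 ± 51, 605 ± 46, 412 ± 31 and 288 ± 34 CPM (SD, n = 3) in RNA-seq Ctrl. These 4 genes lie under NKIRAS1, PIN4, CAND2 and IQCG. RPL36A and RPL17, which share exons with the readthrough genes RPL36A-HNRNPH2 and RPL17-C18orf32, read 0.0188 and 0.0457 CPM in 4sU-seq Ctrl and 15.9 and 41.4 CPM in RNA-seq Ctrl. RPL5, which forms a particle with RPL11 and 5S rRNA, read 14.6 CPM in 4sU-seq Ctrl and 646 CPM in RNA-seq Ctrl. RPL15, RPS4X, RPL32, RPL36A, RPL17, RPL26 and RPL35A did not pass the 4sU-seq filter and have no 4sU-seq test. How the counting treated reads under overlapping genes, and whether it did so alike in both assays, is not given in the sources used here, and the part of overlap in these values was not tested.

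**Figure D5:**
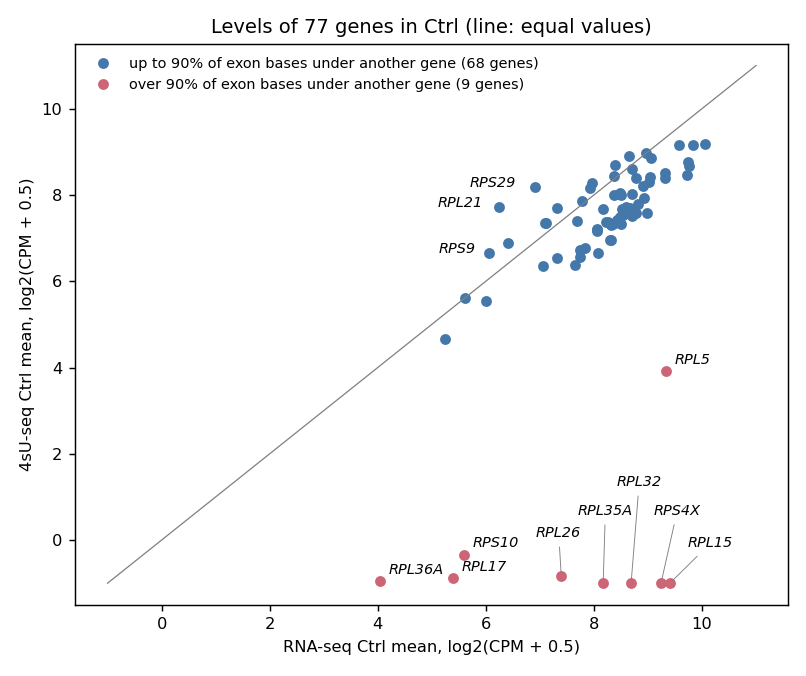
Ctrl level of each of 77 ribosomal protein genes in 4sU-seq (y axis) against RNA-seq (x axis), each as log2 of the mean CPM of 3 libraries plus 0.5, with the line of equal values; red marks the 9 genes with over 90% of exon bases under another gene. The red points hold the 9 lowest 4sU-seq values, and most blue points lie below the line.

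Per kilobase of main transcript, the RNA-seq Ctrl level had a median of 478 CPM per kilobase over the 77 genes, against 9.77 over 13619 protein-coding genes, and 35 of the 100 highest genes were ribosomal protein genes. RPL13 was highest, at 1197 ± 98 CPM per kilobase (SD, n = 3), followed by RPL8 at 899 ± 62, RPL19 at 865 ± 72 and RPL15 at 826 ± 62. The mean ± SD ranges of RPL8, RPL19 and RPL15 overlap. The lowest were RPS28 at 28.3 ± 1.2, RPL36A at 37.0 ± 5.9, RPL37 at 43.2 ± 3.1 and RPL17 at 61.8 ± 6.6 CPM per kilobase. The order depends on the length used: per kilobase of coding sequence RPL37 was at 1142 and ranked 5 of 77, RPL41 was highest at 2862, and RPL36A was lowest at 50.0.

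Reads of ribosomal protein genes can be shared with processed pseudogenes, and 75 of the 77 genes had at least 1 pseudogene row, 1002 rows in all. RPL28 and RPS25 had none, and RPL23A had the most, 93. In RNA-seq Ctrl the pseudogene rows of RPL21, RPL9 and RPS28 held 84.2, 82.0 and 79.7% of the counts of gene and pseudogenes, so the levels of these genes are uncertain. RPL9 read 155, 170 and 163 CPM in 4sU-seq Ctrl and 125, 156 and 126 CPM in KO (-0.26 ± 0.12, edgeR adjusted p = 0.187). Of 239 pseudogene rows tested in RNA-seq, 31 were lower and 24 higher, with a median of 0.00, against 26.8% and 21.5% of all genes. Introns of 25 members hold 50 snoRNA rows, of which 15 had more than 3 counts in RNA-seq Ctrl and 0 in 4sU-seq Ctrl.

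Several factors that carry ribosomal proteins to the nucleus and the pre-ribosome were lower in KO. Of 18 such chaperone and import genes, 4 were lower and 0 higher in 4sU-seq (median -0.39), and 11 were lower and 0 higher in RNA-seq (median -0.28), against 6.98% and 26.8% of all genes called lower. Without 4sU-seq KO replicate 2, 14 of the 18 were lower in 4sU-seq (median -0.55, against 28.4% of all genes called lower). Leaving out any other 1 library of 4sU-seq left 0 to 2 lower, against 1.2 to 3.4% of all genes. HEATR3, which brings RPL5 into the nucleus, read 46.3, 45.8 and 44.3 CPM in 4sU-seq Ctrl and 29.9, 30.4 and 32.1 CPM in KO, with KO replicate 2 between the others (-0.56 ± 0.10, edgeR adjusted p = 0.0131). In RNA-seq HEATR3 was not called (-0.06 ± 0.05, edgeR adjusted p = 0.371). LTV1, an assembly factor of the small subunit, fell by 0.53 ± 0.11 in 4sU-seq and by 0.31 ± 0.06 in RNA-seq (edgeR adjusted p = 0.0201 and 0.000676). KPNB1 (importin beta) and IPO5 were called lower in both assays. RRS1, which helps place the 5S particle, and GRWD1, a chaperone of RPL3, fell by 0.64 ± 0.06 and 0.52 ± 0.06 in RNA-seq (edgeR adjusted p = 1.80e-06 and 9.75e-06). In 4sU-seq neither was called (-0.48 ± 0.23 and -0.63 ± 0.26, edgeR adjusted p = 0.207 and 0.145). With ERCC scaling 0 of the 18 were called in 4sU-seq, and 6 were lower and 1 higher in RNA-seq. Of all genes, that scaling called 0.207% lower in 4sU-seq, and 13.4% lower and 21.4% higher in RNA-seq.

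The lists below stand beside all genes tested, of which 6.98% were lower and 12.6% higher in 4sU-seq. In RNA-seq these shares were 26.8% and 21.5%. Among other transcripts with a TOP motif, 1 of 21 tested was lower in 4sU-seq, NPM1 (-0.36 ± 0.08, edgeR adjusted p = 0.0218), and 0 were higher, with a median of -0.24. This list held mRNAs and the noncoding RNAs SNHG1 and GAS5. In RNA-seq 10 of 23 were lower and 2 higher (median -0.13), among them PABPC1, the poly(A)-binding protein (-0.39 ± 0.06), RACK1, a scaffold on the small subunit (-0.31 ± 0.06), and the elongation factor EEF2 (-0.25 ± 0.06; edgeR adjusted p = 0.000115, 0.000612 and 0.00472). Without 4sU-seq KO replicate 2, 16 of the 21 were lower and 1 higher in 4sU-seq, against 28.4% and 25.4% of all genes. Leaving out any other 1 library of 4sU-seq left 0 or 1 lower, against 1.2 to 3.4% of all genes. Regulators of TOP mRNAs and of mTORC1 had 2 lower and 1 higher of 16 in 4sU-seq (median -0.15), and 10 lower and 3 higher of 17 in RNA-seq (median -0.23). The 4sU-seq count without KO replicate 2 was 8 lower and 2 higher (median -0.28), and without any other 1 library 0 or 1 lower. The shares of all genes in these fits were those given above for the TOP transcripts. LARP1 read 499, 467 and 468 CPM in RNA-seq Ctrl and 330, 333 and 334 CPM in KO (-0.52 ± 0.05, edgeR adjusted p = 3.61e-06). In 4sU-seq LARP1 was not called (-0.31 ± 0.11, edgeR adjusted p = 0.104). MTOR fell in both assays, by 0.50 ± 0.12 and 0.48 ± 0.06 (edgeR adjusted p = 0.0290 and 1.76e-05). DEPTOR, an inhibitor of mTOR, was higher in both, by 1.92 ± 0.17 and 1.01 ± 0.16 (edgeR adjusted p = 0.00132 and 0.000148). In RNA-seq EIF4EBP2, AKT1S1 and TSC2 were also lower (-0.61 ± 0.05, -0.41 ± 0.07 and -0.35 ± 0.07). RPS6KB2 and TSC1 were higher there (0.25 ± 0.05 and 0.18 ± 0.06). The activity of mTORC1 was not measured, and these genes were chosen after their values were seen.

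Relatives outside the naming rule had 1 lower and 0 higher of 9 in 4sU-seq (median -0.16), against 6.98% and 12.6% of all genes. In RNA-seq 2 of 8 were lower and 2 higher (median -0.03), against 26.8% and 21.5%. With 4sU-seq KO replicate 2 left out, 5 of the 9 were lower and 1 higher in 4sU-seq (median -0.39), against 28.4% and 25.4%. Without any other 1 library of 4sU-seq 0 were lower, against 1.2 to 3.4% of all genes. RPS27L, a paralog of RPS27, read 44.3, 48.6 and 52.3 CPM in RNA-seq Ctrl and 70.7, 70.4 and 72.4 CPM in KO (0.56 ± 0.06, edgeR adjusted p = 1.07e-05). RPL26L1, a paralog of RPL26, fell by 0.66 ± 0.16 in 4sU-seq and by 0.21 ± 0.07 in RNA-seq (edgeR adjusted p = 0.0332 and 0.0190). FAU, which encodes RPS30 in a fusion, had values of -0.27 ± 0.25 in 4sU-seq and -0.05 ± 0.07 in RNA-seq. It was not called in either assay. With ERCC scaling the 4sU-seq medians of these relatives and of the regulators changed sign, to 0.03 each, and that of the other TOP transcripts was -0.06. Of the 3 lists 1 gene was called in 4sU-seq, as higher. In RNA-seq that scaling left 5 TOP transcripts lower and 4 higher, 7 regulators lower and 2 higher, and 1 relative lower and 3 higher. Of all genes it called 0.207% lower and 3.16% higher in 4sU-seq, and 13.4% lower and 21.4% higher in RNA-seq.

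Of 8 colorectal epithelial markers, 7 passed the filter in 4sU-seq and 6 in RNA-seq. CEACAM5 was at 0 CPM in every 4sU-seq library and at most 0.0324 CPM in RNA-seq, and VIL1 at most 0.28 CPM in RNA-seq. KRT8 was the highest in Ctrl, at a mean of 685 CPM in 4sU-seq and 1370 CPM in RNA-seq. The list summed to 1359 to 1672 CPM in 4sU-seq Ctrl and 1215 to 2062 CPM in 4sU-seq KO. In RNA-seq it summed to 2785 to 3187 CPM in Ctrl and 2599 to 2711 CPM in KO. Of the markers tested 1 of 7 was higher in 4sU-seq, and 3 were lower and 1 higher in RNA-seq. Without 4sU-seq KO replicate 2, 4 of the 7 were lower and 1 higher in 4sU-seq, against 28.4% and 25.4% of all genes. Blood cell markers summed to at most 0.311 CPM in any library. Endothelial markers summed to at most 9.75 CPM in 4sU-seq, where both were higher in KO (1 of 2 without Ctrl replicate 2 or KO replicate 1), and to at most 0.311 CPM in RNA-seq. Fibroblast markers summed to at most 13.1 CPM in 4sU-seq and 10.8 CPM in RNA-seq, with COL1A1 higher in KO in both. The 4sU-seq call of COL1A1 was lost without Ctrl replicate 1, 2 or 3, and the part of these genes in the results was not tested.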

How the data were processed

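The authors deposited 2 tables of raw gene counts, 1 per assay, which are whole numbers as tested on the files. Per the submitters' processing notes, the tools were FastQC 0.11.2, HISAT2 2.1.0, SAMtools 1.3 and featureCounts, with the build hg38. Which annotation, counting feature and strand setting were used is not given in the sources used here. From these counts each assay was fitted on its own, leaving 92 ERCC rows out of library sizes and dropping low genes with filterByExpr at a minimum count of 10. TMM set the scaling. The test of KO against Ctrl was edgeR 4.0.16's quasi-likelihood F test, two-sided, adjusted by Benjamini-Hochberg over every gene tested, at a threshold of 0.05. The difference between assays was the interaction over all 12 libraries. Each fit was checked first on simulated counts with planted changes. Reads were not realigned. A few genes are not reported by name here.

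The members, the gene lists and the alternatives were chosen with earlier results of these data known. The genes named with values are those called, up to 8 per assay or the 4 with the smallest p in each direction, the extremes of each comparison, of the level per kilobase, of the ratio and of the pseudogene share, and genes without overlap in both assays; the other genes named, and the examples from the lists, were chosen after their values were seen. Annotation came from GENCODE 29, which holds 52890 of the 56104 gene IDs, and a gene's main transcript is the shortest that holds its principal coding sequence. Alternatives were DESeq2 1.42.0, other scalings and filters, a replicate block, trend removal and leaving out libraries. Scripts ran in Python 3.11.15 (figures with matplotlib 3.10.9) and R 4.3.3. Replicate numbers were not taken as pairs in the main fits, since the labels do not say that a number marks a shared culture. In 4sU-seq the deviations of same-numbered libraries correlated by -0.252, 0.948 and 0.916, and in RNA-seq by -0.114, 0.356 and 0.432.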

Additional observations from a re-analysis of the deposited data

Results flagged for a closer look

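RPS24 had a change in newly made RNA that differed from its change in steady-state RNA by -0.52 on the log2 scale, by a test of the difference itself over all 12 libraries (edgeR adjusted p = 0.0413).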

How the results depend on the processing

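The count of genes called lower in 4sU-seq, 6, became 0 with ERCC scaling, 2 by library size alone, 13 with all 12 libraries in 1 fit, 13 with the GC trend removed, 11 with the gene span trend removed and 66 without both replicates numbered 2. The share of all genes called lower in 4sU-seq also moved, from 6.98% in the main fit. For those settings, in the same order, it was 0.2072, 4.04, 13.04, 16.24, 12.01 and 24.78%. Leaving out 1 library gave 0 to 70 ribosomal protein genes called and a median of -0.54 to -0.14, with 1.234 to 28.4% of all genes called lower. In RNA-seq the 23 called became 14 with ERCC scaling, 45 by library size alone (median 0.17), 0 with all 12 libraries in 1 fit and 11 with KO replicates 1 and 2 summed; with a mean of at least 50 counts the split was 11 lower and 11 higher. Of all genes, 48.4% were called in the main fit, 34.8% with ERCC scaling and 50.2% by library size alone. The 12-library fit called 22.4% of all genes, the summed replicates 40.8%, and the mean filter 30.8% as lower and 27.2% as higher. Leaving out 1 library gave 10 to 28 called and a median of -0.07 to 0.07, with 39.4 to 48.3% of all genes called. For the difference between assays the 1 call became 3 with DESeq2 size factors, 0 with ERCC scaling, 4 by library size alone, 0 with no filter, 4 with a mean of at least 50 counts, 7 with the DESeq2 Wald test, 3 with the span trend removed and 37 with 4sU-seq replicates 2 left out and RNA-seq KO replicates 1 and 2 summed; leaving out 1 library gave 0 to 57. All of these calls were lower, and 1.03% of all genes were called lower in the main fit of the difference. In the settings listed, in order, that share was 1.4, 0.013, 1.7, 0.46, 2.1, 4.4, 2.0 and 10.5%. With 1 library left out it was 0.24 to 21.6%. The nascent-to-total ratio moved from -0.87 to -1.27 with TMM over all 12 libraries, and lay from -0.95 to -0.81 with 1 library left out.

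With the replicate block the calls were 13 in 4sU-seq, 22 lower and 7 higher in RNA-seq and 6 for the difference between assays. The 4sU-seq and difference calls were all lower, against 12.95% and 1.88% of all genes. In RNA-seq 27.8% of all genes were lower and 23.0% higher with the block. The numbers share no stated culture. In 4sU-seq the deviations of Ctrl replicates 2 and 3 correlated best with the KO library of the same number (0.948 and 0.916). Ctrl replicate 1 correlated better with KO replicate 2 (0.29) than with its own number (-0.252).

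RPLP0, at 0.02 in 4sU-seq, took -0.020 with DESeq2 size factors, the DESeq2 Wald test and the block, -0.019 with TMM without members and pseudogenes, -0.049 with no filter, -0.040 and -0.036 with the GC and span trends removed, and -0.216 without both replicates numbered 2; leaving out 1 library it ranged from -0.356 to 0.170 (-0.065 and -0.064 without Ctrl replicates 1 and 3). RPL14 in RNA-seq took 0.049 by library size alone. For the difference between assays, RPL36 ranged from -0.240 (without 4sU-seq KO replicate 2) to 0.310 with 1 library left out and took -0.139 without both replicates 2; RPS9 took -0.007 by library size alone and with no filter, -0.133 without both replicates 2, and -0.283 to 0.219 with 1 library left out. The cause of these changes was not tested. The median level per kilobase was 98.9 over the union of exons and 727 over coding length.

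The 4sU-seq p-values rest on 3 libraries per group, of which 1 KO library stands apart. Ctrl replicate 2 deviated in the same direction for the ribosomal protein genes. The floor of 3 counts covers counting error only.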
